A study of Mus musculus with 8 samples.

Results

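The hair shaft keratins are the intermediate filament proteins from which the fibre of a hair is built. Of 10 genes considered (Krt31, Krt32, Krt33a, Krt33b, Krt34, Krt35, Krt81, Krt82, Krt85 and Krt86), a gene counted as measured where the platform annotation paired a probe set with its symbol and no other. This gave 9 probe sets for 9 genes out of 18193 genes in all, with a single probe set each, and Krt85 was not analysed here. The genes were chosen by family and not picked by their own values, although earlier results of these data were known.

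Gene expression was measured on 8 arrays of dorsal skin from Hos:HR-1 mice, which belong to a hairless strain and were female and 10 weeks old at sampling. The control group (4 arrays) ate AIN-93G, a purified rodent diet, and the collagen group (4 arrays) ate the same diet with 2.0 g of fish scale collagen hydrolysate per 100 g, for 1 week. No allele, transgene or other agent is named for either group, and which of the 16 caged mice (8 per diet) gave the arrays is not stated in the labels. The labels call the arrays biological replicates, and their number limits the precision of every value below. The sample titles do not state whether an array holds RNA of a single mouse, so a numbered mouse below stands for an array.

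Hair keratins work as obligate pairs. A type I (acidic) chain joins a type II (basic) chain, and the pairs assemble into filaments that are later embedded in keratin-associated proteins and crosslinked through cysteines. During hair growth they are made in sequence above the follicle bulb. Krt35 and its type II partner appear early, in the matrix and the young cuticle. Krt32 and Krt82 mark the hair cuticle, the outer scale layer. Krt31, Krt33a, Krt33b, Krt34, Krt81 and Krt86 are keratins of the cortex, the main body of the shaft. Much of this order was worked out in human follicles. In mice of hairless strains the coat is shed after the first growth of hair and is not renewed normally, and follicle remnants and cysts remain in the skin.

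The family lies in tight clusters. On chromosome 11 Krt33a, Krt33b, Krt34, Krt31, Krt32 and Krt35 are consecutive protein-coding genes, followed by Krt36. On chromosome 15 Krt81 and Krt86 are neighbours, and Krt83 and Krt84 lie between them and Krt82. The RefSeq table of promoter windows (build GRCm38.p6) held 5 of the 9 measured genes, and the 250 bases before each annotated start are shown. Any link between these sequences and how the members varied over the arrays was not tested. All 5 windows lie on the minus strand and read 5′ to 3′ towards the gene: Krt33b at chr11:100029869-100030118, Krt34 at chr11:100041555-100041804, Krt31 at chr11:100050552-100050801, Krt32 at chr11:100088270-100088519 and Krt82 at chr15:101550660-101550909. Capitals mark CTTTGAA (a word bound by LEF1 and its TCF relatives, Wnt pathway factors of the hair matrix), TTTTATG and TATAAA (the TATA box).
Krt33b: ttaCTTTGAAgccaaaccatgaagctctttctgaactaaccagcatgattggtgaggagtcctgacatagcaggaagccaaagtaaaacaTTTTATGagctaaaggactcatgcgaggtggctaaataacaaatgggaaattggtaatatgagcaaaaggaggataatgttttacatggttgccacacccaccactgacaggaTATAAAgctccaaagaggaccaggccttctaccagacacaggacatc
Krt34: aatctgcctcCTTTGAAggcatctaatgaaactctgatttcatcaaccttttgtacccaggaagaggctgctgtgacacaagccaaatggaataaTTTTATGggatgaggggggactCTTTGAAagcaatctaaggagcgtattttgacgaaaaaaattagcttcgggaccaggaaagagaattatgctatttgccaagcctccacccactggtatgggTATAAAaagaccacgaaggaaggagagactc
Krt31: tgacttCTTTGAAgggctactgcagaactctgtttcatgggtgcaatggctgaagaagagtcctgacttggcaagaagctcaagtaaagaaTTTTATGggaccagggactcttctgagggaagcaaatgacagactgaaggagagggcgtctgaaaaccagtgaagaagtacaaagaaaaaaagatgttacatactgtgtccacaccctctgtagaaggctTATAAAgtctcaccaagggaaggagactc
Krt32: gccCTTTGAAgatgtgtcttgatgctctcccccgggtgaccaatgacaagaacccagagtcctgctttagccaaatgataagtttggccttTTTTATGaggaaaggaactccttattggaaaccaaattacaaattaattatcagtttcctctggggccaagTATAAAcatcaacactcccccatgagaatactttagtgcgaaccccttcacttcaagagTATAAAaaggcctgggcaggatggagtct
Krt82: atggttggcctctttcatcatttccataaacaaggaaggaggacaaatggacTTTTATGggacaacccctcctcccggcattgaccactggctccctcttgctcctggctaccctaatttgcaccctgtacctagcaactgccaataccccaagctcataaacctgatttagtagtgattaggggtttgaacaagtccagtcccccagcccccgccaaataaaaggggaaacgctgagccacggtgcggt

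The 4 type I windows shared an arrangement that the type II window of Krt82 did not have. CTTTGAA began 247 bases before the start in Krt33b and Krt32, 244 in Krt31 and 240 in Krt34, which had another copy at 133. TTTTATG began 160 bases before the start in Krt33b, 159 in Krt31 and Krt32, 155 in Krt34 and 198 in Krt82. TATAAA began 29 bases before the start in Krt31 and Krt32, 31 in Krt34 and 47 in Krt33b, with another copy at 88 in Krt32.

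These words were searched on both strands. TTTTATG was found by listing each 7-letter word held by at least 4 of the 5 windows. That list had 3 words, of which CTTTGAA and TTTGAAG overlap by 6 letters. Reversed, TTTTATG also shares the letters ATAAA with TATAAA, although no marked copies overlap here. Of 32851 windows of the same length, 4.46% held CTTTGAA, 3.77% TTTTATG, 4.83% TTTGAAG and 12.4% TATAAA. A match is a description of the letters and says nothing about binding in these samples.

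All values are the authors' deposited log2 values. On this scale most probe sets hardly moved (a median range of 7.36e-06 across the 8 arrays), and no source says why, so differences are not turned into fold changes. They are given on the deposited scale and in units of the within-group SD, which is the spread among the arrays of a diet. Levels of different probe sets are not compared, because each binds its target differently, and signal over background is unknown. In whole skin, fewer follicle cells and less RNA per cell cannot be told apart. Among the epidermal keratins of the labelled tissue, group means on either diet were 14.19 for Krt14 and 14.39 for Krt10. Krt1, Krt5, Krt15 and Krt77 lay between 13.07 and 13.63. Krt2, of the same list, had means of 7.985 in controls and 8.002 with collagen, below the median of probe set means (8.193).

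The measured keratins of the hair shaft varied more between arrays than nearly all other probe sets. Krt34 had the widest range, 0.156, which ranked 22 among 45037 probe sets. Krt33a (0.0973) and Krt86 (0.0964) ranked 32 and 33, and Krt33b (0.0481) ranked 72. The smallest range was that of Krt82, 5.71e-04, and it was still wider than that of 95.59% of probe sets. Wide ranges were not particular to these keratins. Over the 38 measured keratin-associated proteins the range ran from 1.54e-06 to 0.237. For the 8 measured keratins of the inner root sheath and companion layer it ran from 0.00112 to 0.0247.

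Among the type I keratins of the cortex, Krt34 read 8.385, 8.360, 8.328 and 8.371 in control mice 1 to 4 and 8.263, 8.330, 8.419 and 8.302 in collagen-fed mice 1 to 4. The highest and the lowest mouse were both collagen-fed, and the control values lay inside the collagen range. Krt33a read 8.898, 8.873, 8.845 and 8.880 in the controls and 8.814, 8.848, 8.911 and 8.837 with collagen. Krt33b read 8.582, 8.570, 8.557 and 8.574 in the controls and 8.542, 8.567, 8.590 and 8.552 with collagen. Krt31 spread less, with 8.504, 8.503, 8.498 and 8.503 in the controls and 8.496, 8.501, 8.506 and 8.497 with collagen. In all 4 genes the mice had an identical order, from collagen 1 through collagen 4, control 3, collagen 2, control 2, control 4 and control 1 up to collagen 3.

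The type II keratins of the cortex had nearly that order. Krt86 read 8.285, 8.274, 8.243 and 8.273 in the controls and 8.207, 8.251, 8.304 and 8.228 with collagen, and differed from the order above only in that control 2 stood above control 4. Krt81 read 8.956, 8.955, 8.953 and 8.956 in the controls and 8.952, 8.954, 8.958 and 8.953 with collagen, with control 4 above control 1. For both genes the controls lay within the collagen range, as they did for 7 of the 9 keratins. These neighbours in the order differed by little against the spread within a diet.

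The remaining keratins, of the cuticle or the early shaft, shared the highest mouse but not the rest of the order. Krt35 read 8.944, 8.945, 8.937 and 8.942 in the controls and 8.938, 8.942, 8.946 and 8.942 with collagen, so that control 3 and not collagen 1 was the lowest. Krt32, a cuticle keratin, read 8.3437, 8.3436, 8.3429 and 8.3434 in the controls and 8.3433, 8.3433, 8.3444 and 8.3435 with collagen, again with control 3 lowest. Krt82 read 7.7296, 7.7297, 7.7295 and 7.7296 in the controls and 7.7294, 7.7296, 7.7300 and 7.7295 with collagen. Collagen 3 was the highest array for all 9 keratins and collagen 1 the lowest for 7. Control 3 was the lowest of the control arrays for all 9. The median of all probe sets was also highest in collagen 3 (8.19294) and lowest in collagen 1 (8.19267), with the other arrays between 8.19287 and 8.19288. After median centring collagen 3 was still highest for 9 keratins and collagen 1 lowest for 6.

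**Figure D1:**
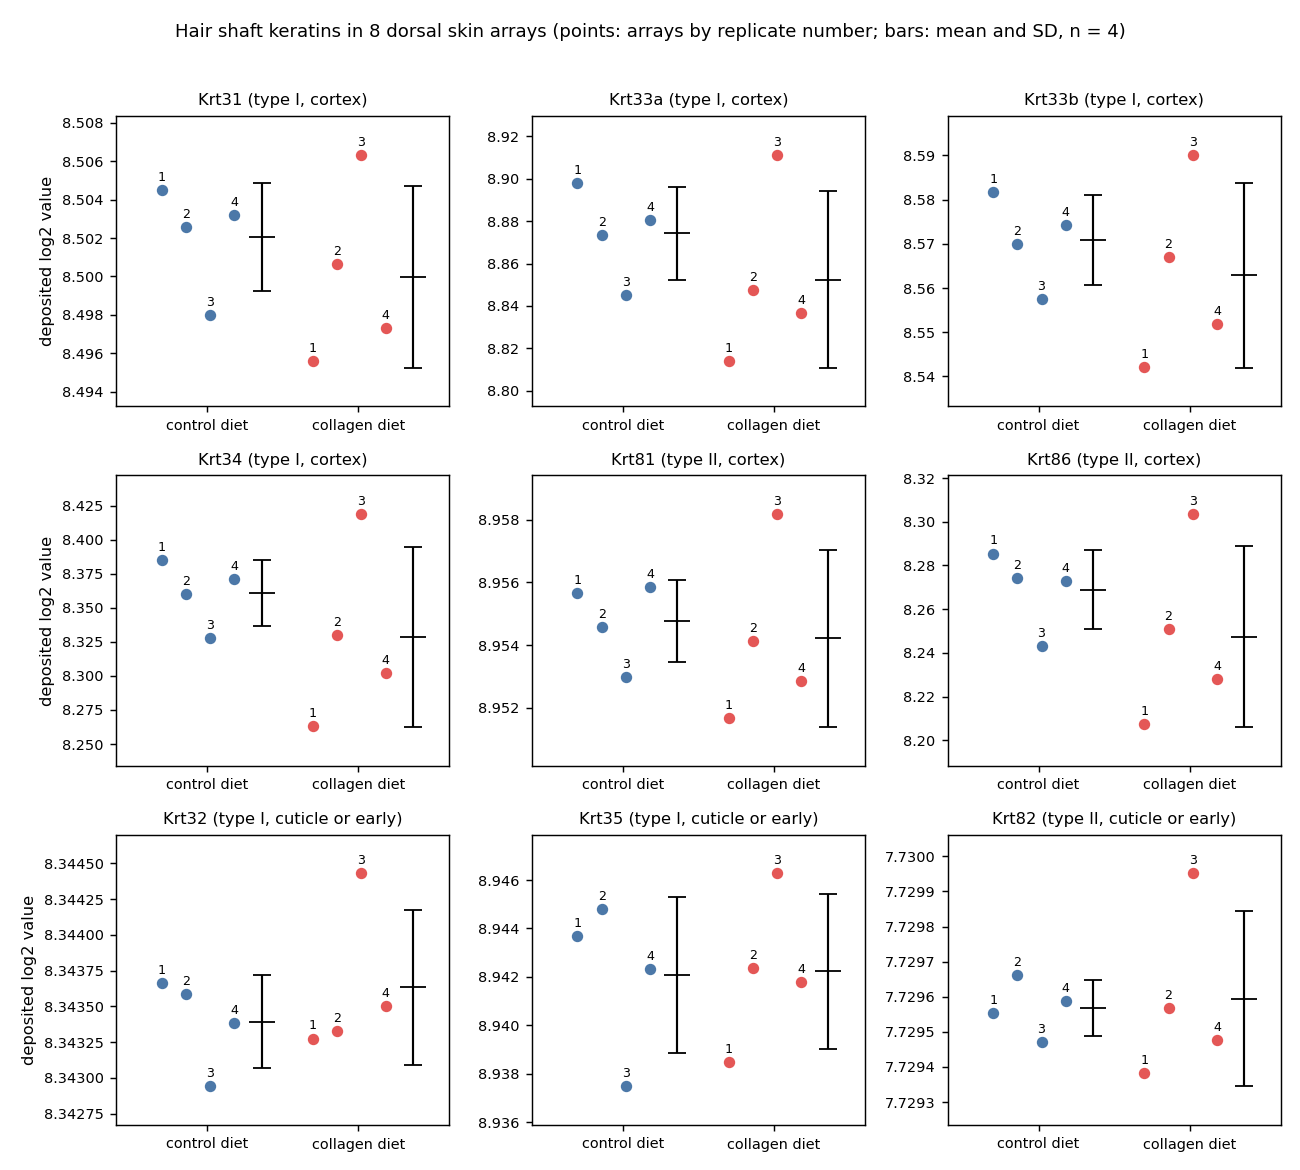
Deposited log2 value (vertical axis, own scale in each panel, not starting at 0) of 9 hair shaft keratins in 4 control and 4 collagen-diet arrays, numbered by replicate, with mean and SD beside them (n = 4). Collagen 3 is the highest point of every panel, and the diets overlap in each.

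No hair shaft keratin was separated by diet. By limma's moderated test, with Benjamini-Hochberg adjustment over 18193 genes and a threshold of 0.05, 0 of the 9 keratins passed, against 0 (0%) of all genes. At an unadjusted p under 0.05 there were 0 of 9, against 635 genes (3.49%). The adjusted p was 0.999 for each keratin, and the unadjusted p ran from 0.359 to 0.947. The diets did not overlap in 0 of the 9 keratins, against 2.02% of all genes.

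The size of the differences was below the spread between arrays. Krt34 differed by -0.0324 ± 0.0339 (SE, n = 4 per diet), from 8.361 ± 0.024 (SD) in controls to 8.329 ± 0.066 with collagen, or -0.65 within-group SD. Krt33a differed by -0.0219 ± 0.0227 (-0.66 SD) and Krt86 by -0.0215 ± 0.0217 (-0.67 SD). Their range over the mice was between 4.45 and 4.81 times the diet difference.

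Krt33b differed by -0.00804 ± 0.0112 (-0.49 SD), Krt31 by -0.00209 ± 0.00265 (-0.54 SD) and Krt81 by -5.47e-04 ± 0.00150 (-0.25 SD). Krt32 differed by 2.41e-04 ± 3.03e-04 (0.54 SD), Krt35 by 1.51e-04 ± 0.00219 (0.05 SD) and Krt82 by 2.66e-05 ± 1.26e-04 (0.14 SD). An exact two-sided permutation test over the 70 assignments of mice to diets gave p from 0.371 to 0.943 for the 9 keratins, where 0.0286 is the smallest it can give.

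Of the 9 keratins 6 lay lower with collagen, against 47.1% of all genes, and none of these differences passed the test. They were the 6 cortex keratins, while the 3 keratins of the cuticle or early shaft lay on the other side of 0. This grouping by layer was made after the values were seen, and the difference between the layers was not tested. By type, 4 of 6 type I and 2 of 3 type II keratins lay lower. The median over the 9 keratins was -0.49 within-group SD (-0.00209 on the deposited scale), against 0.05 SD (5.25e-08) over all genes.

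The count of lower keratins changed with the arrays used and their weights. With array weights, which ran from 0.556 (collagen 4) and 0.588 (collagen 1) to 1.67 (control 3) and 2.63 (collagen 3), the number of keratins lower with collagen was 0 of 9, and Krt34 differed by 0.0143 ± 0.0357. Without collagen 3 the number was 9 of 9, without control 3 it was 8 and without collagen 1 it was 5. Collagen 3 was the highest array and control 3 the lowest control array for all 9 keratins. Weighting these arrays up or leaving them out therefore moves the differences. Why they stood apart was not tested. The difference between the 3' and 5' Gapdh control probe sets, a measure read for RNA quality, ran from 0.2898 to 0.2904 in controls and from 0.2900 to 0.2906 with collagen. With it as a covariate the number was 6. For each of the 9 keratins the range was wider in the collagen group than in the control group, by 1.06 times (Krt35) to 2.99 times (Krt82). The same share over all genes was not counted. These 9 ranges are not separate observations, as collagen 3 was highest for all 9 keratins and collagen 1 lowest for 7.

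**Figure D2:**
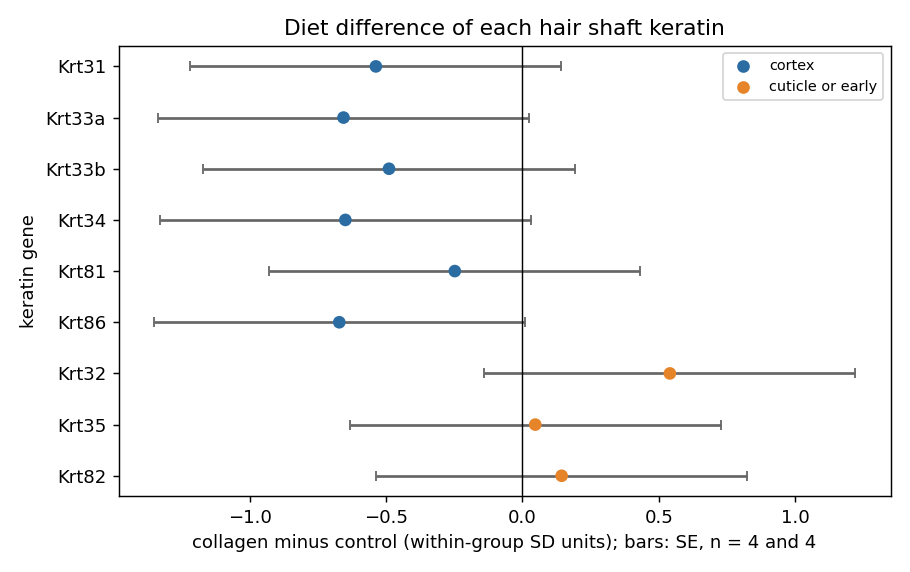
Collagen minus control difference of each keratin in within-group SD units (horizontal axis), with the SE of limma's moderated test as bars (n = 4 and 4). The 6 cortex keratins lie between -0.67 and -0.25 and the 3 others between 0.05 and 0.54, and all bars cross 0.

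The keratins varied together from array to array. For each gene the values were scaled to its own mean and SD over the 8 arrays, giving z values, and averaged over the 9 genes. The mean was 1.64 in collagen 3, 0.65 in control 1, 0.37 in control 2, 0.33 in control 4, -0.19 in collagen 2, -0.68 in collagen 4, -0.78 in control 3 and -1.34 in collagen 1. The highest and the lowest mouse were both collagen-fed, and the 4 controls lay between them. The first principal component of the scaled values held 89.4% of their variance and the second 6.75%.

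Type I and type II chains followed each other. The mean z of type I minus that of type II lay between -0.25 (control 3) and 0.35 (control 1), small beside the distance between collagen 3 and collagen 1. Krt34 (type I) and Krt86 (type II), which lie on different chromosomes, had Pearson's r of 0.995 and Spearman's rho of 0.976 over the 8 mice (exact permutation over all pairings of the arrays, two-sided, p = 4.96e-05; adjusted p = 3.35e-04 over 36 pairs). The neighbours Krt33a and Krt33b had r = 0.979 and rho = 1 (exact permutation adjusted p = 3.35e-04). Closely related keratins can share sequence, so a probe set may also bind RNA of a relative. Its part in these relations was not tested.

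**Figure D3:**
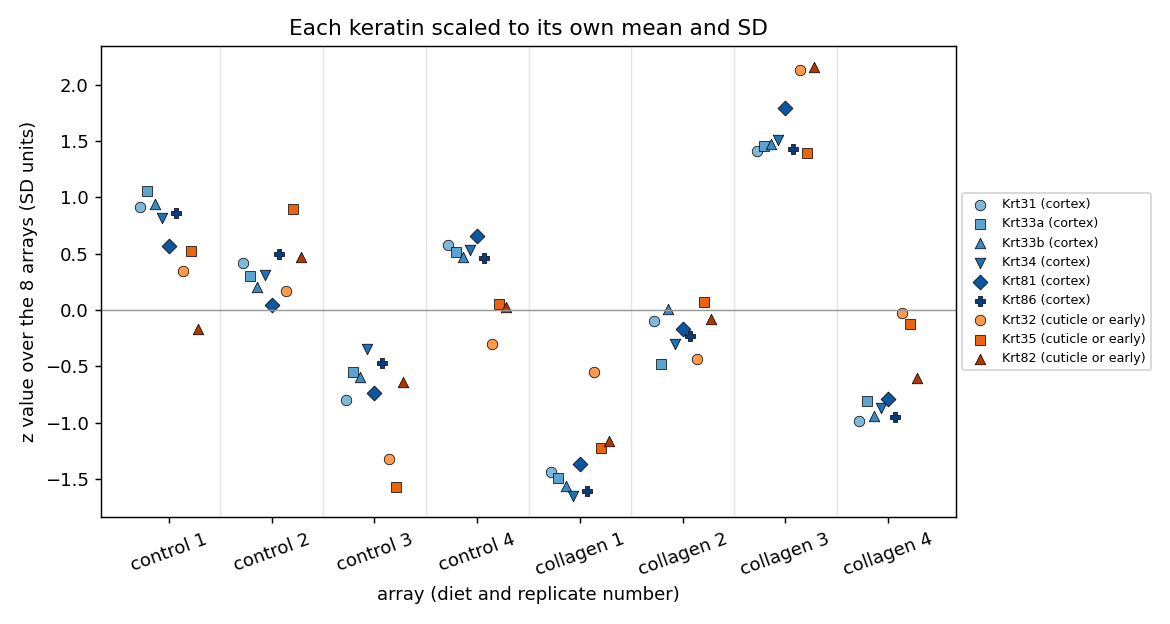
The z value of each keratin (vertical axis, SD units over the 8 arrays) in each array, with cortex keratins in blue and keratins of the cuticle or early shaft in orange. The 9 genes stand close together in each mouse, from 1.39 to 2.15 in collagen 3 and from -1.65 to -0.55 in collagen 1.

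Of the 36 pairs, 35 passed at adjusted p under 0.05 by the exact permutation test, with r from 0.699 to 0.995. The exception was Krt32 with Krt34 (r = 0.699, rho = 0.762, exact permutation adjusted p = 0.0545). Within type I 14 of 15 pairs passed, within type II 3 of 3 and across types 18 of 18. By rho, 34 of 36 passed, and after median centring 23 did by r. With each value taken as its deviation from the diet mean, r lay between 0.833 and 0.994, so the relation was present without the diet difference. By the same permutation 36 of these pairs passed. Deviations sum to 0 within each diet, so that test is only approximate and its count is not set against the 35.

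Fewer pairs passed when arrays were left out. Without the 2 arrays farthest from the median of the x gene, 17 of 36 pairs passed and r lay between 0.506 and 0.988. The 15 pairs of cortex keratins were all among these 17, with r from 0.919 to 0.988, against 0.956 to 0.995 with all mice. Of the 18 pairs of a cortex keratin with a keratin of the cuticle or early shaft, 17 passed with all mice (r from 0.699 to 0.906) and 1 did without those arrays, where r lay between 0.512 and 0.877 with n = 6 (median 0.645). The difference between the layers was not tested. The same 18 gave 5 calls without collagen 3 and 10 without collagen 1.

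Among the 3 keratins of the cuticle or early shaft, r lay between 0.832 and 0.875. Krt35 with Krt82 had r = 0.832 and rho = 0.881 (exact permutation adjusted p = 0.00929), and 0.926 without the 2 farthest arrays (exact permutation adjusted p = 0.0353). Krt32 with Krt82 had r = 0.875 and rho = 0.714 (exact permutation adjusted p = 0.0210), and 0.506 without them.

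**Figure D4:**
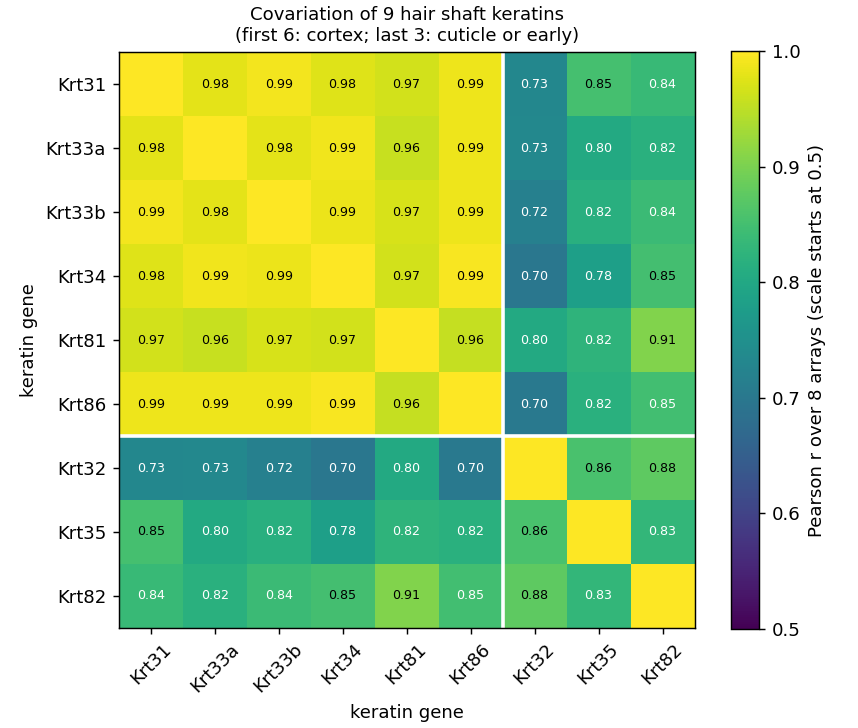
Pearson's r over the 8 arrays for each pair of the 9 keratins (colour scale from 0.5 to 1), with the 6 cortex keratins first and the 3 of the cuticle or early shaft last. The cortex block lies between 0.956 and 0.995, and the block across layers between 0.699 and 0.906.

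Of the 15 genes with the most similar profiles, 8 were keratin-associated proteins, 2 came from the list of genes that structure or process the shaft, 1 was a further hair keratin and 4 were in none of the lists. Ranked by r with the mean z of the 9 keratins over the 8 mice, a description with no test, Krt83 came first (r = 0.985). It is a further type II hair keratin and the neighbour of Krt86. It read 8.7274, 8.7270, 8.7266 and 8.7272 in the controls and 8.7263, 8.7268, 8.7279 and 8.7268 with collagen, with collagen 3 again highest and collagen 1 lowest. Next came the keratin-associated proteins Krtap9-3 (0.972) and Krtap3-1 (0.967), then Gprc5d (0.966), an orphan receptor of hair-forming cells, and Gm11563 (0.966).

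The other 10 of the first 15 were Krtap11-1, Krtap4-7, Krtap4-1, Krtap4-6, Calhm4, Psors1c2, S100a3, Krtap13-1, Krtap4-16 and Gm10229, with r from 0.965 down to 0.948. S100a3 is a calcium-binding protein of the hair cuticle. These values share the 8 arrays and nothing else is drawn from them. Over all 18182 other genes with any spread the median r was -0.03, and 45 exceeded 0.9.

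Genes of the follicle around the shaft were placed beside the keratins from lists. Of 38 measured keratin-associated proteins, 20 had r above 0.9 (median 0.902), and their mean z was likewise highest in collagen 3 (1.65) and lowest in collagen 1 (-0.97). Of them 23 lay lower and 15 higher with collagen, and 0 passed. Krtap7-1 differed by -0.0427 ± 0.0275, Krtap6-3 by -0.00184 ± 0.00130 and Krtap15 by -0.0758 ± 0.0547. The 8 measured keratins of the inner root sheath and companion layer, the layers that mould the growing shaft, had r from 0.792 (Krt75) to 0.932 (Krt27). Their mean z was highest in control 2 (1.08) instead, and lowest in collagen 1 (-1.75). All 8 lay lower with collagen and 0 passed the test, with Krt72 at -3.26e-04 ± 2.51e-04, Krt26 at -0.00365 ± 0.00297 and Krt73 at -0.00251 ± 0.00270.

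Among 11 measured genes that structure or process the shaft, 9 lay lower and 2 higher with collagen, and 0 passed. Padi3, an enzyme that citrullinates trichohyalin, read 8.816, 8.818, 8.810 and 8.817 in the controls and 8.805, 8.812, 8.818 and 8.813 with collagen, a difference of -0.00319 ± 0.00306. Tgm3, a crosslinking transglutaminase, differed by -5.43e-05 ± 4.64e-05, and Tchh, trichohyalin, by -6.37e-04 ± 6.16e-04. In this list 5 genes had r above 0.9 with the keratins (Gprc5d, S100a3, Padi1, Crym and Tchh). The junction genes Dsc2, Jup and Pkp1, which the epidermis also uses, had r from 0.126 to 0.213.

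The other hair keratins measured were Krt36, Krt83 and Krt84. All 3 lay lower with collagen and 0 passed. Krt83 differed by -1.16e-04 ± 3.55e-04, Krt36 by -1.20e-05 ± 1.47e-05 and Krt84 by -2.22e-06 ± 1.09e-06. Their r with the mean z of the 9 keratins was 0.985 for Krt83, 0.794 for Krt36 and 0.598 for Krt84. The range of Krt84 over the arrays, 5.11e-06, lay below the median of all probe sets (7.36e-06), so not every hair keratin varied widely.

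Over 16 regulators of the shaft the median r with the keratins was 0.373. The highest were Hoxc13, a homeobox factor that activates hair keratin genes, at 0.786 and Msx2 at 0.748, and the lowest was Bmp4 at -0.514. In diet, 9 of the 16 lay lower and 7 higher with collagen, and 0 passed at adjusted p under 0.05. Hr, the corepressor gene whose loss gives hairless strains their phenotype, read 8.870060, 8.870061, 8.870060 and 8.870058 in the controls and 8.870057, 8.870055, 8.870055 and 8.870048 with collagen, without overlap, as in 2.02% of all genes. Its difference was -6.10e-06 ± 2.06e-06 (unadjusted p = 0.0230 and adjusted p = 0.999 by limma's test), and its r with the keratins was 0.131. Msx1 differed by 1.92e-06 ± 1.15e-06 and Ovol1 by 1.04e-05 ± 1.19e-05.

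Markers of other cells of the skin had r with the shaft keratins that ranged widely. The 7 epidermal keratins had a median r of -0.15, from -0.30 (Krt15) to 0.66 (Krt2). Their summed deposited value ran from 90.09 to 90.14 in controls and from 90.07 to 90.17 with collagen. It moved mostly with Krt2, whose range of 0.105 over the arrays was the widest of the 7. In diet 6 lay higher and 1 lower, and 0 passed, with Krt14 at 2.35e-07 ± 2.33e-07, Krt5 at 4.97e-06 ± 5.29e-06 and Krt10 at 2.83e-07 ± 4.09e-07. The 4 stress keratins had a median r of -0.13. All 4 lay higher with collagen and 0 passed at adjusted p under 0.05, with Krt6b at 0.0180 ± 0.00532, Krt16 at 1.37e-04 ± 5.46e-05 and Krt6a at 5.12e-05 ± 2.17e-05. Krt6b and Krt16 did not overlap between the diets (unadjusted p = 0.0131 and 0.0434 by limma's test). Over all genes, 2.02% did not overlap and 3.49% had an unadjusted p under 0.05. The epidermal keratin Krt14 and the melanocyte gene Slc45a2 did not overlap either. Of the stress keratins, Krt17, which the follicle also makes, had r = 0.685.

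The 8 melanocyte genes had a median r of 0.379, up to 0.680 for Mlana, and their sum ran from 70.05 to 70.06 in controls and from 70.06 to 70.07 with collagen. All 8 lay higher with collagen and 0 passed at adjusted p under 0.05, with Slc45a2 at 4.31e-06 ± 1.54e-06, Tyrp1 at 0.00359 ± 0.00139 and Dct at 0.00156 ± 6.09e-04. By limma's test these 3 had unadjusted p of 0.0286, 0.0386 and 0.0401, where 3.49% of all genes lay under 0.05. The 14 skeletal muscle markers had r from 0.069 to 0.532 (median 0.400). Their mean z was lowest in collagen 1 (-1.34), like that of the keratins, but highest in control 4 (1.27), and their sum ran from 168.7 to 169.8 in controls and from 169.0 to 169.6 with collagen. In diet 13 lay lower and 1 higher, and 0 passed, with Casq1 at -0.00284 ± 0.00114, Eno3 at -4.44e-04 ± 2.05e-04 and Myh2 at -0.0323 ± 0.0155. The 1 higher was Myh4, at 0.204 ± 0.255. Its range of 1.04 over the arrays was the widest of all genes, so the sum of the muscle markers moved mostly with Myh4. No defining marker of these lists was at 0 on any array. The deposited values do not reach 0 for any probe set, so the absence of 0 cannot show whether a marker was present. The part of muscle or of other cells in the keratin values was not tested.

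**Figure D5:**
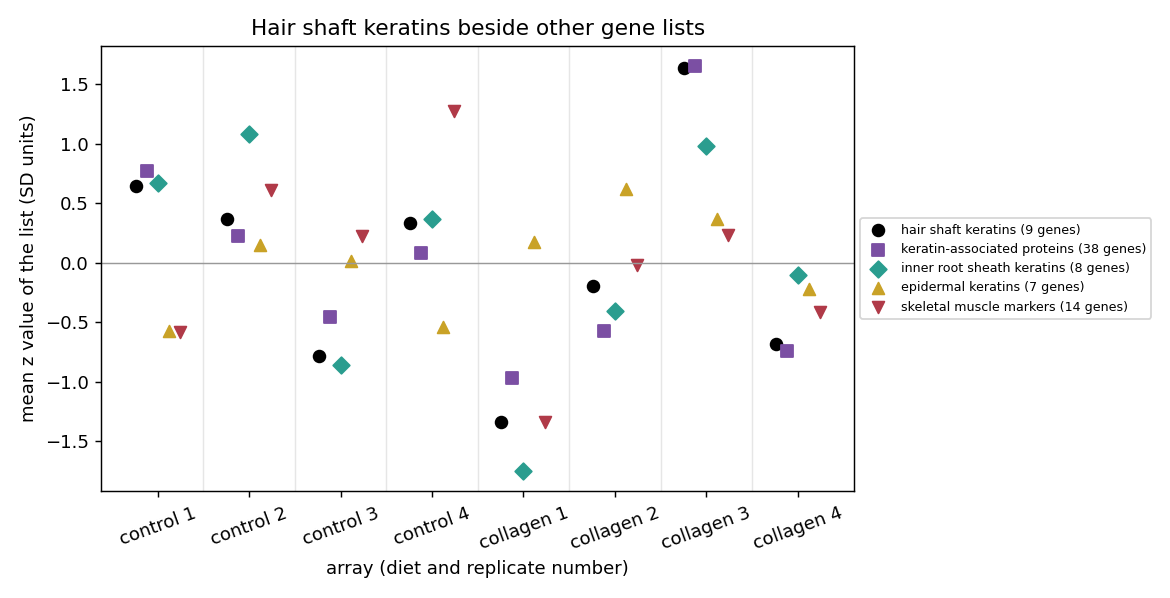
Mean z value (vertical axis, SD units over the 8 arrays) of the 9 hair shaft keratins and of other lists in each array. The keratins and the keratin-associated proteins both reach their highest point in collagen 3 (1.64 and 1.65) and their lowest in collagen 1, while skeletal muscle markers are highest in control 4 (1.27).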

How the data were processed

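Biotin-labelled RNA from powdered frozen dorsal skin was hybridised to 1-colour arrays, per the labels' protocols. The authors deposited 1 table of log2 values, and the submitters' processing notes name R 2.7.2. How probe sets were summarised and normalized, like the build, is not given in the sources consulted, and the log2 scale is inferred from values between 6.56 and 14.46. Values were used as deposited, after 64 control probe sets were left out. For each gene the single-symbol probe set with the highest mean was used. Diets were compared with limma 3.58.1 in R 4.3.3 (no covariate, collagen minus control, two-sided) over all 18193 genes. Pairs of keratins were compared by Pearson's r with exact permutation, adjusted over 36 pairs. Both steps were tested on simulated data. Tables were handled with pandas 2.3.3, and figures drawn with matplotlib 3.10.9.

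The keratins and gene lists were chosen with earlier results of these data known, and the grouping by hair layer and the word TTTTATG after the values and sequences were seen. Named were all measured keratins, the 3 genes of smallest p per list and the 15 of highest r with the mean z of the keratins. Other genes were named as extremes or members of their lists after their values were seen. Alternatives were median centring, quantile normalization, leaving out each array, array weights (values multiplied by 1e+06 for their estimation), the replicate number as a block, a mean-variance trend, a filter on dim probe sets, an unmoderated test, the mean over a gene's probe sets and, added after the data were seen, the difference of the 3' and 5' Gapdh control probe sets as a covariate. For pairs they were Spearman's rho, deviations from diet means and leaving out the 2 farthest arrays.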

Additional observations from a re-analysis of the deposited data

Results flagged for a closer look

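By a rule on gaps within a diet, applied to 1 gene at a time, no measured hair shaft keratin was flagged. Krt32 in collagen 3 read 8.3444, against 8.3433 to 8.3435 in the other collagen arrays, and was not flagged either. In 72 groups of 4 arrays (36 named genes, 2 diets), the gap of the extreme array to its nearest neighbour was large against the group's range in 3, where chance gives about 1 in 20. These were the epidermal keratin Krt14 in collagen 2 (gap 0.833 of the range), the stress keratin Krt16 in collagen 2 (0.897) and the keratin-associated protein Krtap6-3 in control 1 (0.889).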

How the results depend on the processing

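The count of 0 keratins and 0 genes past adjusted p 0.05 for diet was the same in all 17 alternatives. The count of keratins lower with collagen (6) lay between 5 and 9 with 1 array left out, and was 0 with array weights, as was that of the 6 cortex keratins (5 to 6 with 1 array left out). With array weights the differences of Krt31, Krt33a, Krt33b, Krt34, Krt81 and Krt86 turned to 0.00153, 0.00996, 0.00724, 0.0143, 0.00155 and 0.00821. With 1 array left out Krt32 lay between -2.54e-05 and 3.60e-04, Krt35 between -0.00138 and 0.00139, Krt81 between -0.00187 and 3.00e-04 and Krt82 between -9.26e-05 and 9.76e-05. The pair count (35 of 36) lay between 22 (without collagen 3) and 35 with 1 array left out, and was 23 after median centring and 17 without the 2 farthest arrays. Of these, the 15 pairs of cortex keratins passed in all alternatives run. The 18 pairs across layers gave 17 calls, between 5 (without collagen 3) and 17 with 1 array left out, 6 after median centring and 1 without the 2 farthest arrays. The cause of the shifts in the pair counts was not tested. Deviations of same-numbered control and collagen arrays correlated at 0.369, 0.053, 0.220 and 0.019 for replicates 1 to 4. For control arrays 1 and 3 the closest collagen array had the same number, and for 2 and 4 it did not. Whether replicate numbers pair the mice was not tested. With the replicate block 0 keratins passed and 6 lay lower. The replicate block, the mean-variance trend, the unmoderated test and the mean over probe sets could not change any keratin difference. They therefore do not test the count of 6. The filter on dim probe sets removed Krt82. Signal over background is unknown, which limits any reading of low levels.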
